A study of Homo sapiens with 15 samples.

Results

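Transcript levels of the kinase cascade headed by apoptosis signal-regulating kinase 1 (ASK1, the product of MAP3K5) were compared between PE/CA-PJ41 cells labelled as expressing cytoglobin and cells labelled as carrying an empty vector. The 10 genes were MAP3K5, MAP3K6, MAP2K3, MAP2K4, MAP2K6, MAP2K7, MAPK8, MAPK9, MAPK14 and DUSP1. A probe was taken when the array annotation gave it a RefSeq transcript of one of these genes, and 15 of the 42405 gene probes on the array met this rule. They covered 9 of the 10 genes. No probe could be tied to MAPK8 (JNK1) in this way, and no value is given for it. All 15 probes passed the filter on dim signal, as did 22328 probes in all.

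PE/CA-PJ41 is an immortalised line from a human oral squamous cell carcinoma. CYGB+ cells carried the pCMV6-Neo plasmid with the human cytoglobin cDNA, in which a cytomegalovirus promoter drives the insert, and NCE cells (non-cytoglobin-expressing) are labelled as carrying an empty vector. The study's text calls its control un-transfected in places, so whether NCE passed through transfection and G418 is not settled by the sources used here. CYGB+ was 1 stable clone, picked with a cloning ring under G418. RNA was taken after 24 h in supplemented medium, with no drug given. RNA was extracted on 3 occasions. Each group had 3 biological replicates, each hybridised to 3 arrays for NCE and to 2 arrays for CYGB+, which gave 9 and 6 arrays. Replicates of CYGB+ are cultures of a single clone, so a difference between the groups cannot be told apart from a difference between clones. The comparison asked how cytoglobin, a haem globin linked to oxidative stress, altered the stress pathways of these cells.

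ASK1 is a MAP kinase kinase kinase that oxidants, death receptors and endoplasmic reticulum stress switch on. Reduced thioredoxin binds it and keeps it silent, and oxidation of thioredoxin releases it. Active ASK1 phosphorylates MAP2K4 and MAP2K7, which activate the JNK kinases (MAPK8 and MAPK9), and MAP2K3 and MAP2K6, which activate p38 (MAPK14). DUSP1 is a phosphatase that removes the activating phosphates from p38 and JNK again. Arrays measure the transcripts of these proteins and not their phosphorylation, which is how the cascade carries its signal.

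Values are log2 green-channel signals after quantile normalisation, averaged over the arrays of a biological replicate, so that 1 unit is a doubling. Groups were compared with limma over all probes that passed the filter, and a probe was called at a Benjamini-Hochberg adjusted p under 0.05. The arrays did not differ much in quality. Between 48.9% and 57.3% of probes lay well above background on each, and the array-wide median signal ran from 21.7 to 41.6 on 14 arrays and was 17.7 on the remaining one, the first array of CYGB+ replicate 1. It correlated with the CYGB+ arrays of the other replicates with a mean r of 0.921 across probes, while its repeat did so with 0.985, and the pair with each other with 0.918. Results were recalculated without the dim array and, in turn, without its repeat. Of the 9 NCE arrays 8 lay on one slide, and the last NCE array shared the second slide with all 6 CYGB+ arrays. Each slide was scanned once. Differences between the groups are therefore also given with slide as a block and within the second slide alone. In the latter a single NCE array was assumed to vary like the CYGB+ replicates. The slide block was fitted to single arrays and not to replicate averages, with a correlation of 0.216 between arrays of a replicate. Its group difference rests mainly on the NCE array that shared the second slide with CYGB+. The slide block is therefore not a check separate from the fit within the second slide. The 9 squamous epithelial markers examined, among them KRT5, KRT14 and TP63, were well above background on every array. No marker of fibroblasts, leukocytes or endothelium was above background on all arrays, and 4 of those 10 were below it on every array. However, fibroblast COL1A1 was well above it on 7 of 9 NCE and 6 of 6 CYGB+ arrays, and endothelial CDH5 on 8 and 6. Summed over each list, the squamous signal lay between 210557 and 243306 in NCE and between 208031 and 280692 in CYGB+, and the fibroblast signal between 51.2 and 108.03 and between 62.4 and 102.5. The leukocyte signal lay between 33.4 and 41.4 in NCE and between 37.9 and 46.2 in CYGB+. For endothelium it was 61.2 to 91.2 in NCE and 55.3 to 80.3 in CYGB+.

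The inserted gene did not check the labels. The CYGB probe (A_33_P3285868) read 12.85, 13.16 and 12.96 in the NCE replicates and 12.37, 13.42 and 13.01 in the CYGB+ replicates. It was bright in both groups, and they overlapped (log2 difference -0.05 ± 0.27, SE, n = 3 per group, adjusted p = 0.922). The array annotation holds no probe sequence, so whether this probe lies within the cloned cDNA is not known here. Every direction below follows from the labels of the arrays. All 15 were labelled as Cy3 samples. The methods instead give Cy3, the dye of the green channel used here, to cytoglobin RNA and Cy5 to control RNA. On the first NCE array of each replicate, red minus green had the sign of CYGB+ minus NCE for MAP3K5 and DUSP1, with -0.96, -1.04 and -1.34 at MAP3K5 probe A_23_P134125. If those arrays held control RNA in red and cytoglobin RNA in green, as the methods' dyes imply, MAP3K5 would be higher with cytoglobin there. On the CYGB+ arrays red minus green of this probe was 0.15 to 1.90, so by the same dyes MAP3K5 would be lower with cytoglobin. The second MAP3K5 probe, A_33_P3377130, ran from -1.94 to 0.04 on the CYGB+ arrays. On the other 6 NCE arrays A_23_P134125 gave -0.11 to 0.21. The direction of every difference below therefore holds for the labels alone.

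Of the 15 probes 3 were called, against 8.27% of all probes tested. Both MAP3K5 probes fell in the arrays labelled CYGB+ (3.89% of all probes were called in that direction), and the DUSP1 probe rose (4.38%). No probe for MAP3K6, for the MAP2K tier or for the MAP kinases was called. Of these 12 probes 2 had an unadjusted limma p under 0.05, one for MAP2K3 and one for MAPK9, beside 5974 of all 22328 probes tested. The methods' t-test called none of the 12 after adjustment, beside 657 of all probes. With slide as a block 2 of the 15 probes were called, against 2.93% of all probes, and these were DUSP1 and a MAP3K5 probe. Within the second slide NCE has a single array, so a count of calls there says little about the members. The differences there were -1.39 and -1.35 for the MAP3K5 probes and 1.13 for DUSP1. Without the repeat of the dim array none of the 15 was called, beside 216 of all probes. There 5 had an unadjusted limma p under 0.05, beside 3817 of all probes. Without the dim array itself 5 were called, beside 3689 of all probes. The median log2 difference over the 15 probes was -0.03, beside -0.01 over all probes tested. Biological replicates of the groups did not overlap for 5 of the 15 probes, a separation that 33.0% of all probes tested showed. Single arrays of the groups did not overlap for the same 5 probes, beside 10.7% of all probes tested.

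The regions around the start sites of the called genes are printed here because DUSP1 is a textbook immediate-early target of cyclic AMP and stress signalling, set here beside the gene that fell. They are RefSeq sequences of GRCh38.p14 running from 250 bases before the start site to 50 after it, on the minus strand, 5′ to 3′. Capitals mark any match on either strand to the cyclic AMP response element (CRE, TGACGTCA), its core TGACG, the AP-1 site TGANTCA or the core of the antioxidant response element (TGACNNNGC). The core TGACG lies within the CRE and can overlap the antioxidant element. MAP3K5 has 2 annotated start sites (chr6:136793042-136793341 and chr6:136792428-136792727) and DUSP1 has 1 (chr5:172771146-172771445).
MAP3K5, first start site: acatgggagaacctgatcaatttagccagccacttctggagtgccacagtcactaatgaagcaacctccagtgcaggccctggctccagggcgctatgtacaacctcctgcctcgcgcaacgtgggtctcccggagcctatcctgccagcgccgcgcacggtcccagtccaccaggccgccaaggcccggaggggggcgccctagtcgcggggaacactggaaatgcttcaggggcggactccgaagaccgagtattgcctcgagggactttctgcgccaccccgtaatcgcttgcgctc
MAP3K5, second start site: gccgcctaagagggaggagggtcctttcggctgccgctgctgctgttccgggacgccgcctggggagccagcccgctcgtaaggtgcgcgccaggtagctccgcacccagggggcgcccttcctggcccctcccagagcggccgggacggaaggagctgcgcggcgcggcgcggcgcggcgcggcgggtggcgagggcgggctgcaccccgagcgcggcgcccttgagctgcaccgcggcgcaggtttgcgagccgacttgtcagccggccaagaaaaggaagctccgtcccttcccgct
DUSP1: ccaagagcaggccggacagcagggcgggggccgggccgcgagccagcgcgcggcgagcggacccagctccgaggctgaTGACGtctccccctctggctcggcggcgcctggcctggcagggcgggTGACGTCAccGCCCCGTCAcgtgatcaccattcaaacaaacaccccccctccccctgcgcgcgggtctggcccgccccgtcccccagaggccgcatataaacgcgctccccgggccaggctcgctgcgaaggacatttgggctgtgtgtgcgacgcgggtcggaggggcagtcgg

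None of the 4 motifs was found in either MAP3K5 window. The DUSP1 window held 1 full CRE beginning at position -125 from the start site. It held 4 matches to the core TGACG, of which 2 lie within that CRE, and 1 match to the antioxidant element core at -115, which overlaps the core match at -111. No AP-1 match was found there. Over all 35116 windows of this length in the table, 1.85% held the CRE, 24.6% its core, 7.71% the AP-1 site and 13.3% the antioxidant element core. These matches describe the letters of the window, and the arrays carry no measurement of binding.

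MAP3K5 was read by a pair of probes. Probe A_23_P134125, printed at 2 spots, gave 8.67, 8.87 and 9.01 in the NCE replicates and 7.54, 7.28 and 7.55 in the CYGB+ replicates. Every CYGB+ replicate lay below every NCE replicate. Over single arrays NCE ran from 8.51 through a median of 8.85 to 9.40 and CYGB+ from 7.19 through 7.35 to 7.82, so that the groups did not overlap there either. The log2 difference was -1.39 ± 0.17 (SE, n = 3 per group, 95% interval -1.79 to -1.0, limma adjusted p = 0.00646), a 2.62-fold lower level. The study's results describe this gene as up-regulated in its cytoglobin cells after cisplatin, measured by qPCR. Its discussion also mentions up-regulation in the cell model and names no drug there. The sign here is opposite to both, but the cells on these arrays were given no drug and were read by hybridisation, so the measurements are not alike. The study's supplement also names MAP3K5 among the genes of a qPCR check of its array. That check used RNA of control and cytoglobin-expressing lines, and its text gives no direction for MAP3K5. Between-replicate SDs were 0.17 in NCE and 0.15 in CYGB+, and repeated arrays of one replicate varied with an SD of 0.25. With slide as a block, fitted to single arrays, the difference was -1.48 ± 0.30 (adjusted p = 0.0151). Within the second slide it was -1.39 ± 0.32 (adjusted p = 0.230), and without the repeat of the dim array -1.31 ± 0.22 (adjusted p = 0.0534). The probe was called under the other 18 of 20 alternatives.

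Probe A_33_P3377130, printed at 1 spot, gave 6.78, 7.13 and 7.11 in NCE and 5.88, 5.53 and 5.89 in CYGB+. The groups again did not overlap over replicates. Over single arrays NCE ran from 6.58 to 7.53 (median 6.98) and CYGB+ from 5.26 to 6.50 (median 5.59), where the highest CYGB+ array was the dim one. The log2 difference was -1.24 ± 0.18 (SE, n = 3 per group, 95% interval -1.67 to -0.81, adjusted p = 0.0112). Both probes were lower in CYGB+. The distance between them changed from one group to the other by -0.15, and an exact permutation test of that change gave p = 0.2 (two-sided). The smallest p this test can give is 0.1, so it cannot show whether the probes moved alike. Over the 15 arrays the 2 probes correlated with r = 0.960, a description of arrays that share the group difference. The second probe was the less stable one. It was no longer called with slide as a block (-1.48 ± 0.43, adjusted p = 0.0889), within the second slide (-1.35 ± 0.33, adjusted p = 0.255), without the repeat of the dim array (-1.04 ± 0.29, adjusted p = 0.158), without NCE replicate 2 (-1.18, adjusted p = 0.0592) or without NCE replicate 3 (-1.19, adjusted p = 0.0544). Under another background correction, normexp with an offset of 50, its difference shrank to -0.42, and it was still called.

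**Figure D1:**
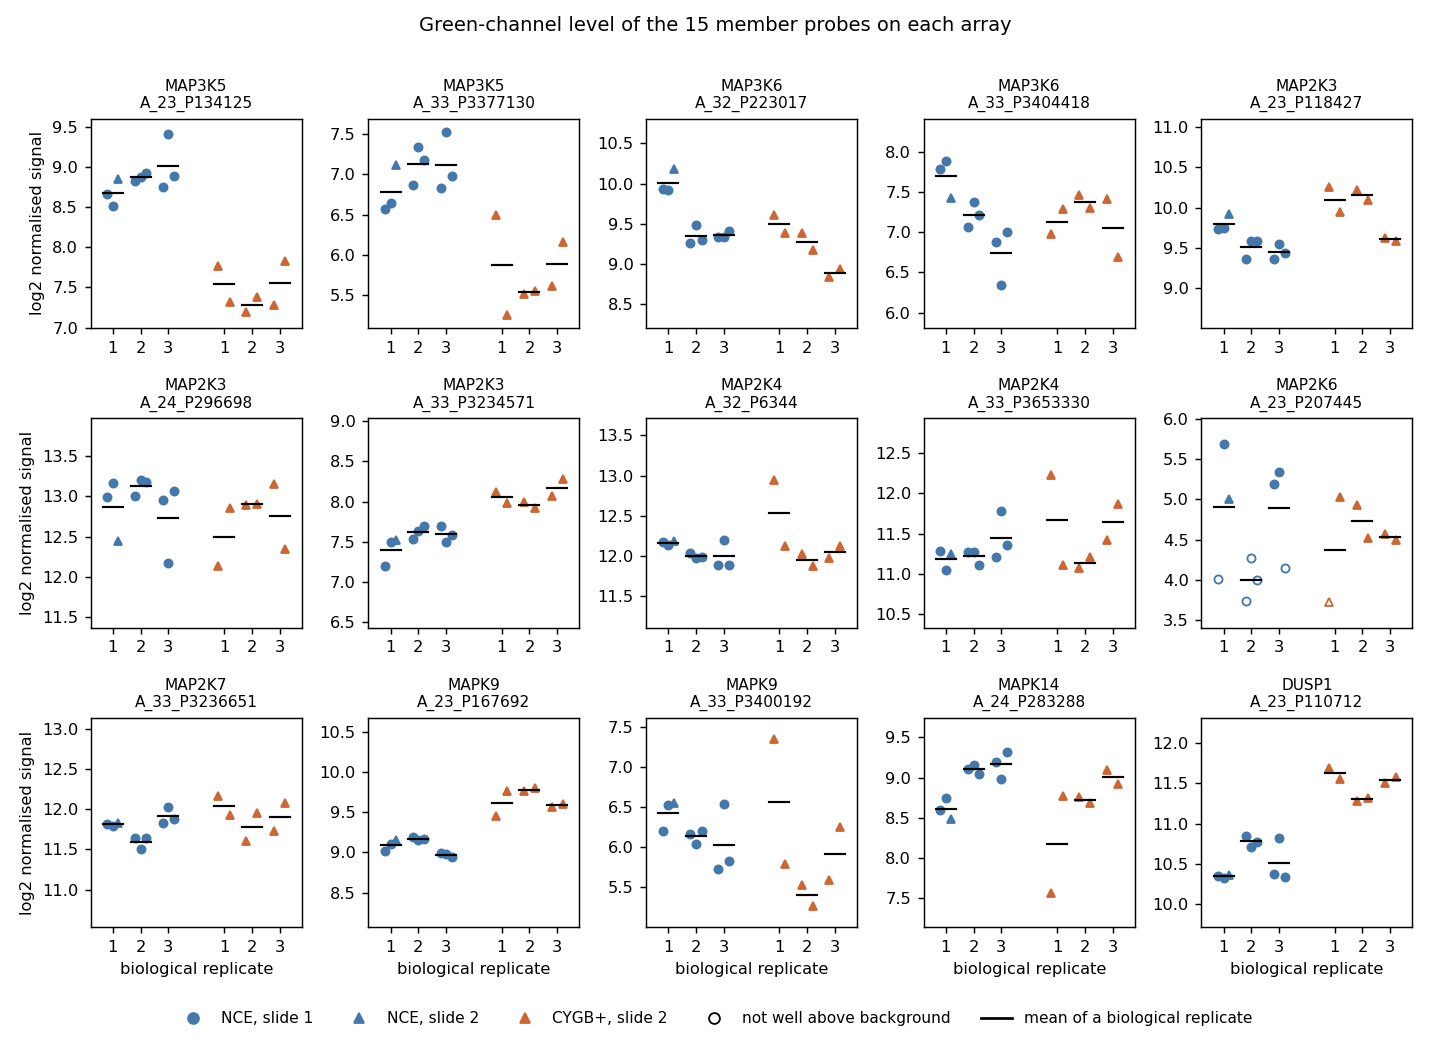
Log2 normalised green signal (vertical axis, each panel spanning the same range) of the 15 probes on each of the 15 arrays, by biological replicate (horizontal axis); black lines are replicate means, circles the first slide, triangles the second, and open symbols arrays on which the probe was not well above background. All CYGB+ arrays of both MAP3K5 probes lie below all NCE arrays, all CYGB+ arrays of DUSP1 lie above, and for MAP2K6 6 arrays carry open symbols.

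MAP3K6 encodes ASK2, the nearest relative of ASK1, with which it forms a complex. Probe A_32_P223017 gave 10.01, 9.34 and 9.36 in NCE and 9.50, 9.28 and 8.89 in CYGB+, and the groups overlapped. The log2 difference was -0.35 ± 0.25 (95% interval -0.93 to 0.23, adjusted p = 0.409). With slide as a block it was -0.81 ± 0.28 (adjusted p = 0.181), and within the second slide -0.95 ± 0.36 (adjusted p = 0.460), over 1.5 times as large but not called either way. Probe A_33_P3404418 gave 7.70, 7.21 and 6.74 in NCE and 7.13, 7.38 and 7.06 in CYGB+, a difference of -0.03 ± 0.26 (95% interval -0.62 to 0.57, adjusted p = 0.960). The 3 NCE replicates of this probe spread over more than the groups differed.

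MAP2K3, an activator of p38, had 3 probes that did not move as one. Probe A_33_P3234571 gave 7.40, 7.62 and 7.60 in NCE and 8.05, 7.96 and 8.17 in CYGB+, without overlap between the groups. Its log2 difference was 0.52 ± 0.15 (95% interval 0.16 to 0.88), which missed the threshold over all probes (adjusted p = 0.0818). It was called without the dim array (0.50 ± 0.13, adjusted p = 0.0429) and with single arrays fitted under a replicate correlation (adjusted p = 0.00227). Probe A_23_P118427 gave 9.80, 9.51 and 9.45 against 10.10, 10.16 and 9.61, with overlap (0.37 ± 0.21, adjusted p = 0.298). Probe A_24_P296698 gave 12.87, 13.13 and 12.73 against 12.50, 12.90 and 12.75 (-0.19 ± 0.19, adjusted p = 0.547), and its sign turned with slide as a block (0.31 ± 0.39). The distance between this probe and A_33_P3234571 changed by -0.71 between the groups in an exact permutation test with p = 0.1 (two-sided), the smallest value that 3 against 3 replicates allow. All 3 probes carry one transcript accession, and where they lie in it is not given in the files.

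MAP2K4, which phosphorylates JNK and p38, differed little between the groups. Probe A_32_P6344 gave 12.17, 12.00 and 12.00 in NCE and 12.53, 11.95 and 12.05 in CYGB+ (0.12 ± 0.20, 95% interval -0.33 to 0.58, adjusted p = 0.726). Its highest CYGB+ value came from the dim array, and without that array the difference was -0.01. Probe A_33_P3653330 gave 11.19, 11.22 and 11.45 against 11.66, 11.14 and 11.64 (0.20 ± 0.20, 95% interval -0.26 to 0.66, adjusted p = 0.564), and 0.01 without the dim array.

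MAP2K7, the kinase dedicated to JNK, gave 11.81, 11.60 and 11.91 in NCE and 12.04, 11.78 and 11.90 in CYGB+ at probe A_33_P3236651. The groups overlapped (0.14 ± 0.16, 95% interval -0.25 to 0.52, adjusted p = 0.638). MAP2K6, the kinase dedicated to p38, was measured near the limit of the arrays. Its probe (A_23_P207445) was well above background on 4 of 9 NCE arrays and 5 of 6 CYGB+ arrays, and it gave 4.90, 4.0 and 4.89 in NCE and 4.38, 4.73 and 4.53 in CYGB+. Repeated arrays of one replicate varied with an SD of 0.61 at this level. The difference of -0.05 ± 0.27 (95% interval -0.68 to 0.58, adjusted p = 0.924) came with an interval that covers changes of either sign.

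MAPK9 encodes JNK2, and its probes represent different annotated transcripts. Probe A_23_P167692 gave 9.09, 9.17 and 8.97 in NCE and 9.61, 9.78 and 9.58 in CYGB+. The groups did not overlap over replicates or over single arrays, where NCE ended at 9.18 and CYGB+ began at 9.45. The log2 difference was 0.58 ± 0.15 (SE, n = 3 per group, 95% interval 0.22 to 0.94), and it missed the threshold (adjusted p = 0.0599). It was 0.50 ± 0.17 with slide as a block (adjusted p = 0.157) and 0.50 within the second slide. The probe was called under 6 of 20 alternatives, without the dim array among them (0.63 ± 0.13, adjusted p = 0.0190). Probe A_33_P3400192 gave 6.43, 6.14 and 6.03 in NCE and 6.57, 5.40 and 5.92 in CYGB+ (-0.24 ± 0.30, adjusted p = 0.651). Here the groups overlapped, and the dim array read 7.34 while the other CYGB+ arrays read 5.27 to 6.25. The distance between both probes was 2.66, 3.03 and 2.94 in NCE and 3.04, 4.38 and 3.66 in CYGB+, wider in CYGB+ by 0.82 with an exact permutation p = 0.1 (two-sided), again the smallest value this design allows.

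MAPK14 encodes p38 alpha. Its probe (A_24_P283288) gave 8.61, 9.10 and 9.17 in NCE and 8.17, 8.72 and 9.0 in CYGB+, and the groups overlapped. The log2 difference was -0.33 ± 0.26 (95% interval -0.94 to 0.28, adjusted p = 0.460). It came to -0.13 without the dim array, which read 7.56 where the other CYGB+ arrays read 8.68 or more, and it took the other sign with slide as a block (0.03 ± 0.41).

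**Figure D2:**
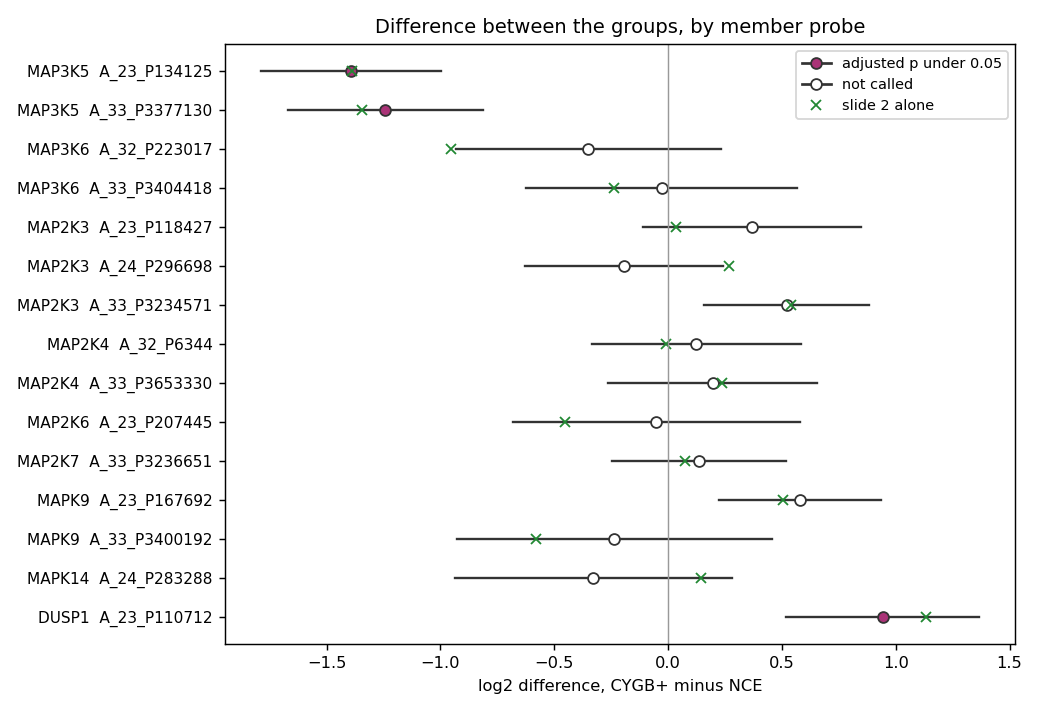
Log2 difference, CYGB+ minus NCE (horizontal axis), of each of the 15 probes (vertical axis) with its 95% interval from limma over 3 replicates a group; filled points were called at an adjusted p under 0.05, and crosses give the difference within the second slide. The filled points are both MAP3K5 probes at -1.39 and -1.24 and DUSP1 at 0.94, and their crosses lie on the same side of 0.

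DUSP1 stood at the other end of the cascade and moved the other way. Its probe (A_23_P110712), printed at 10 spots, gave 10.34, 10.78 and 10.51 in NCE and 11.62, 11.30 and 11.54 in CYGB+. Over single arrays NCE ran from 10.33 through a median of 10.37 to 10.85 and CYGB+ from 11.28 through 11.53 to 11.69, so that every CYGB+ array lay above every NCE array. The log2 difference was 0.94 ± 0.18 (SE, n = 3 per group, 95% interval 0.52 to 1.37, adjusted p = 0.0249), a 1.92-fold higher level. Repeated arrays of one replicate varied with an SD of 0.14. With slide as a block the difference was 1.05 ± 0.23 (adjusted p = 0.0250), and within the second slide 1.13 ± 0.32 (adjusted p = 0.317). Without the repeat of the dim array it was 0.96 ± 0.22 (adjusted p = 0.102). The call was lost when any NCE replicate or CYGB+ replicate 3 was left out. Over the whole array, fits without NCE replicate 1, 2 or 3 or CYGB+ replicate 3 called 717, 391, 522 and 907 probes, against 1847. Why the call was lost was not tested. The adjusted p was 0.0823 without NCE replicate 1, 0.0619 without NCE replicate 2, 0.0986 without NCE replicate 3 and 0.0686 without CYGB+ replicate 3, while the difference stayed between 0.84 and 1.06 in all 6 fits that left out a replicate.

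**Figure D3:**
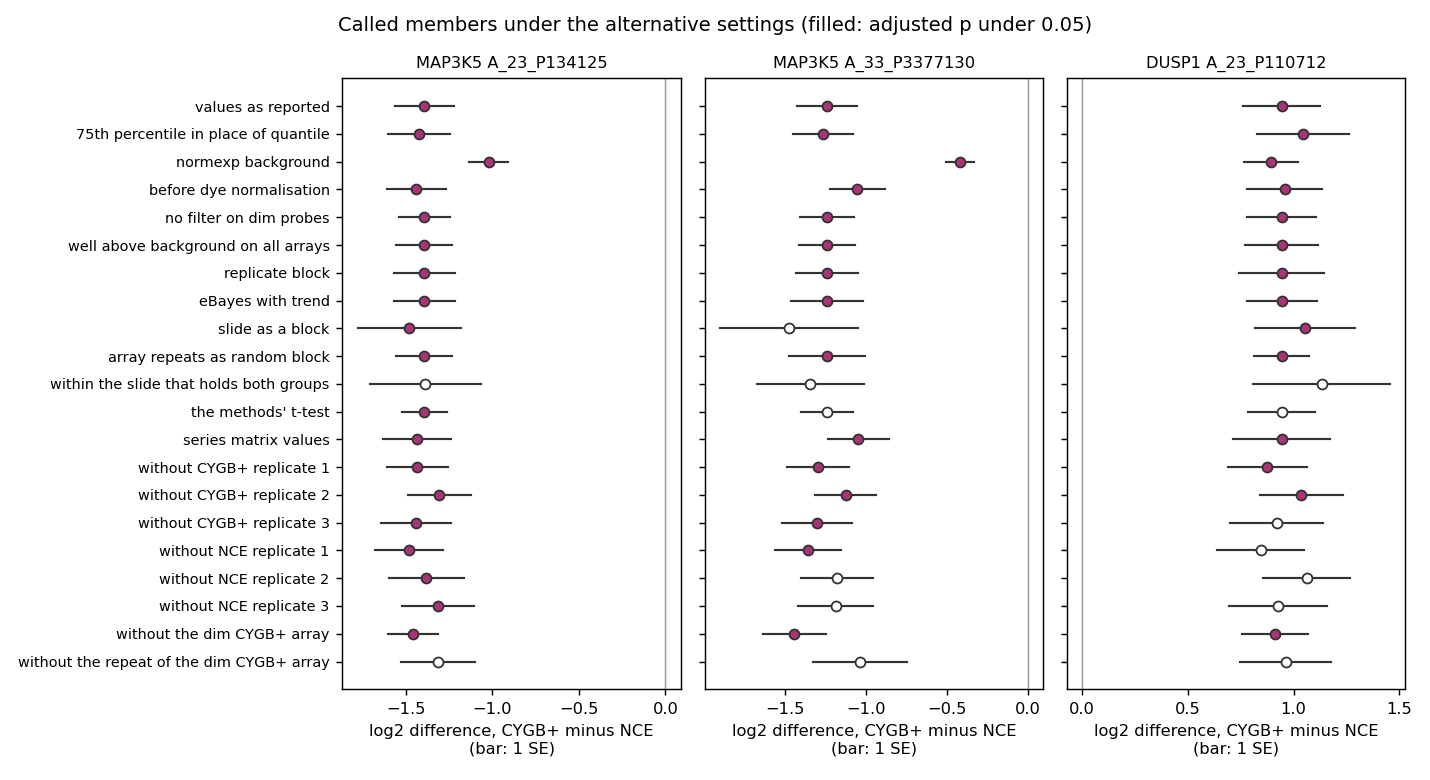
Log2 difference, CYGB+ minus NCE, with 1 SE (horizontal axis) of the called probes under the values reported and 20 alternative settings (vertical axis); filled points had an adjusted p under 0.05. MAP3K5 probe A_23_P134125 ranges from -1.48 to -1.02, probe A_33_P3377130 from -1.48 to -0.42 and DUSP1 from 0.84 to 1.13, all on one side of 0.

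Around these genes, 95 further genes of the stress MAP kinase network were read from a list grouped by role. The list had 131 probes, of which 114 were tested and 10 were called, 4 higher and 6 lower in CYGB+. That is 8.77% of the probes tested, near the 8.27% of all probes. Its median log2 difference was 0.05. Of the 10 calls, 2 remained with slide as a block. With replicate as a block 14 were called, 7 in each direction, against 11.6% of all probes, and the 4 additional calls, named after their values were seen, were both DAB2IP probes and 1 probe each of TAOK3 and ELK1. Within the second slide NCE has a single array, so a count of calls there says little about the list. Without the repeat of the dim array 0 were called, beside 216 of all 22328 probes tested. There 23 had an unadjusted limma p under 0.05, beside 3817 of all probes. The number called lay between 0 and 8 when 1 replicate was left out, beside 391 to 1654 of all probes. It was 0 without NCE replicate 2, where 21 had an unadjusted limma p under 0.05, beside 4053 of all probes.

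Among other kinases upstream of JNK and p38, 2 of 27 probes were called (7.41%, against 8.27% of all probes tested). MAP4K4, which feeds into JNK, gave 7.91, 7.88 and 8.25 in NCE and 9.40, 8.76 and 9.08 in CYGB+ (1.07 ± 0.21, adjusted p = 0.0283). MAP3K20 (ZAK), which senses stalled ribosomes, gave 11.85, 11.95 and 11.88 in NCE and 11.16, 11.14 and 11.21 in CYGB+ at one of its 3 probes (-0.72 ± 0.14, adjusted p = 0.0264). The other MAP3K20 probes, both annotated to another transcript of the gene, differed by -0.07 and 0.20 and were not called.

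Of the proteins that bind or modify ASK1, 1 of 15 probes was called (6.67%, against 8.27% of all probes tested). TRAF6, an adaptor of cytokine and Toll-like receptors that binds ASK1, gave 8.93, 8.94 and 9.21 in NCE and 7.95, 8.03 and 8.20 in CYGB+ (-0.96 ± 0.16, adjusted p = 0.0170), without overlap over single arrays. It was -0.74 ± 0.20 with slide as a block (adjusted p = 0.0697). Thioredoxin itself (TXN) differed by 0.11 (adjusted p = 0.674), and its inhibitor TXNIP by -0.36 (adjusted p = 0.308). The group's median was 0.24.

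The phosphatases that act on MAP kinases held 4 calls among 16 probes (25%, against 8.27% of all probes tested). DUSP10, which acts on JNK and p38, gave 9.64, 9.10 and 9.15 in NCE and 8.42, 7.61 and 7.70 in CYGB+ (-1.39 ± 0.26, adjusted p = 0.0240), opposite in sign to DUSP1. DUSP9 gave 7.45, 7.25 and 7.05 against 6.04, 6.25 and 5.82 (-1.21 ± 0.19, adjusted p = 0.0126). Both were larger with slide as a block, at -1.94 ± 0.38 (adjusted p = 0.0123) and -1.81 ± 0.25 (adjusted p = 0.00182), and these were the 2 calls of the list that remained there. Within the second slide DUSP9 gave -1.83 ± 0.34 (adjusted p = 0.141). DUSP7, which prefers ERK, gave 4.87, 5.0 and 4.60 against 5.86, 5.68 and 5.51 (0.86 ± 0.18, adjusted p = 0.0325). It was well above background on 6 of 9 NCE arrays and 6 of 6 CYGB+ arrays, and it fell to 0.52 ± 0.29 with slide as a block (adjusted p = 0.512). PPM1A was lower by -0.75 ± 0.18 at one probe (adjusted p = 0.0464) and by -0.57 at another that was not called (adjusted p = 0.0829). With slide as a block its called probe gave -0.49 ± 0.20 (adjusted p = 0.282).

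Among targets of JNK and p38, 2 of 29 probes were called (6.90%, against 8.27% of all probes tested). Both were higher in CYGB+, and the median of the group was 0.25. DDIT3 (CHOP), a transcription factor of endoplasmic reticulum stress that p38 phosphorylates, gave 8.92, 9.19 and 9.23 in NCE and 10.51, 9.92 and 10.17 in CYGB+ (1.08 ± 0.20, adjusted p = 0.0218). JUNB gave 7.84, 7.94 and 7.69 against 8.73, 8.90 and 8.43 (0.86 ± 0.18, adjusted p = 0.0316). Neither was called with slide as a block (adjusted p = 0.0602 and 0.0727), where the differences were 1.05 ± 0.28 and 1.04 ± 0.29. The other JUN and FOS family genes of the list were not called, with 0.42 for JUN (adjusted p = 0.158), 0.50 for FOS (adjusted p = 0.121), 0.62 for JUND (adjusted p = 0.134) and 0.09 for FOSL1 (adjusted p = 0.860). For JUN, FOS and JUND the unadjusted limma p was under 0.05. That held for 11 of the 29 target probes and for 5974 of all 22328 probes tested. No probe of ATF2 or ATF3 was called either. The ATF2 probes gave -0.24 and -0.28, and those of ATF3 ran from -0.01 to 0.57 (adjusted p = 0.0638 for the highest).

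Of the other JNK and p38 kinases 1 of 6 probes was called (16.7%, against 8.27% of all probes tested). MAPK10 (JNK3) gave 5.37, 4.97 and 4.88 in NCE and 3.65, 3.87 and 4.49 in CYGB+ (-1.07 ± 0.26, adjusted p = 0.0459), but its probe was well above background on 7 of 9 NCE and 2 of 6 CYGB+ arrays. It met the filter through the group where it was higher, and its CYGB+ level lies mostly at background, so the size of the difference and the call are uncertain. None of 11 probes for scaffolds and none of 10 probes for the ERK cascade, the growth factor branch taken for contrast, was called. So few probes cannot set either group apart from the 8.27% called over all probes tested. The unadjusted limma p was under 0.05 for 0 of the scaffold probes and 1 of the ERK probes, beside 5974 of all 22328 probes tested. The methods' t-test called none of these scaffold and ERK probes. Across the 10 ERK probes the median absolute difference was 0.15, beside 0.31 over all probes tested.

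**Figure D4:**
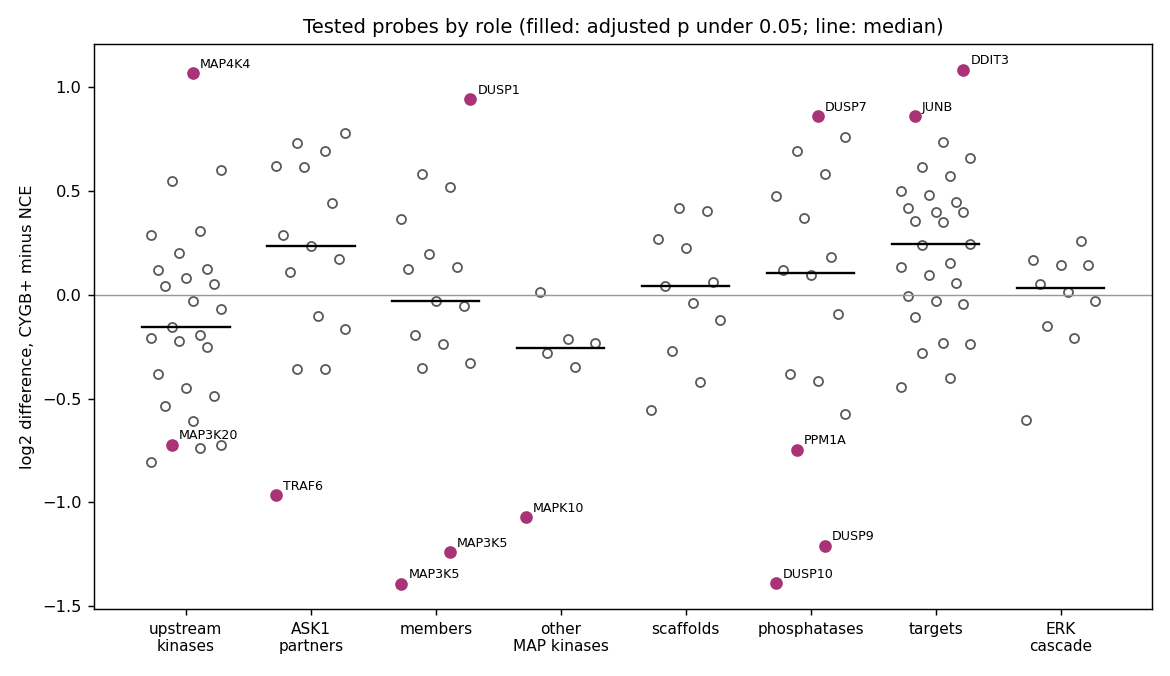
Log2 difference, CYGB+ minus NCE (vertical axis), of every tested probe of the 9 genes and of the wider list, by role in the cascade (horizontal axis); filled and named points were called at an adjusted p under 0.05, and lines are medians. The 13 filled points include MAP3K5, DUSP10 and DUSP9 at the bottom and DDIT3, MAP4K4 and DUSP1 at the top. None lies among the 11 scaffold or 10 ERK cascade probes, too few to set apart from the 8.27% of all probes called.

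The genes whose levels followed MAP3K5 probe A_23_P134125 most closely over the 15 arrays were PHYH (Pearson r = 0.987), NFE2L3 (r = 0.986), TTC3 (r = 0.985), SNX5 (r = 0.984) and FGF11 (r = 0.984). All 5 were lower in CYGB+, by between -0.92 for TTC3 and -2.07 for FGF11. After the mean of each group was taken away, the correlations were 0.931, 0.863, 0.944, 0.871 and 0.843 in the same order. The arrays share their extractions, slides and normalisation, and no test was made.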

How the data were processed

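Total RNA (50 ng) was labelled and hybridised to an Agilent SurePrint G3 human array, 15 arrays in all. The deposited scanner files hold spot intensity, extracted by the authors with Feature Extraction 10.7.3.1 in a protocol for 2 colours, background-subtracted and dye-normalised by that software. The green processed intensity was used, the channel the labels name. The deposited value table holds natural log values of the green signal, set by the authors to each probe's median over the CYGB+ arrays. Its direction, centring and log base were worked out against the scanner files (r between 0.825 and 0.991 per array), its column medians run from -0.16 to 0.18, and the scaling of each array is not given in the sources used here. It served as an alternative and holds 15031 gene probes.

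Outlier spots were left out (0.608% to 1.80% per array), log2 values were averaged over spots of a probe, arrays were quantile-normalised as in the methods, and arrays of a biological replicate were averaged (avearrays). Probes well above background on at least 6 of 15 arrays were tested with lmFit and eBayes (limma 3.58.1, R 4.3.3) with Benjamini-Hochberg adjustment over all 22328. Symbols came from RefSeq accessions (25422 of 27310 such probes matched). The files give no probe sequence or position, and hg19 coordinates were not used. Precision is limited by the 3 biological replicates per group, since arrays of a replicate were averaged. The model was tested on simulated data.

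Groups came from the labels. Replicates of equal number deviated together (r = 0.218, 0.279 and 0.314 across probes), and those of unequal number with r from -0.50 to 0.22. The numbers were taken to pair the samples in the replicate block alone, the source being the data and not a stated batch. NCE replicate 2 and CYGB+ replicate 3 (r = 0.224) deviated together more than the equal pair of replicates 1 (r = 0.218). The pairing by number is therefore not settled by these values. The alternatives were other scalings, background corrections, filters, blocks for slide and replicate, the methods' t-test, the deposited value table and leaving out each replicate. The fits without the dim CYGB+ array and without its repeat were added after the data were seen. Normexp was run on the median spot signal, since the files hold no mean signal. The red channel, whose RNA the labels do not give, entered no comparison.

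The members and gene lists were chosen with earlier results of these data known. All probes of the members are named, and of the wider list up to 4 called probes per role with the largest difference of at least 1.5-fold.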

Additional observations from a re-analysis of the deposited data

Results flagged for a closer look

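On single arrays, 5 of the 30 sets of arrays examined (15 probes in 2 groups) held a value that stood apart from the rest by Dixon's test. Chance gives about 1 in 20 for independent values. Here each set mixes repeats of 3 replicates and the sets share arrays, so the count cannot be set against that rate. MAP3K5 probe A_23_P134125 read 9.40 on the second array of NCE replicate 3, where the other NCE arrays read 8.51 to 8.93. MAP2K3 probe A_33_P3234571 read 7.19 on the first array of NCE replicate 1, below 7.50 to 7.70 on the others. MAP2K4 probe A_33_P3653330 read 11.78 on the second array of NCE replicate 3, above 11.04 to 11.36. The dim array, the first of CYGB+ replicate 1, was the highest of its group for MAP2K4 probe A_32_P6344 (12.94, others 11.88 to 12.13) and the lowest for MAPK14 (7.56, others 8.68 to 9.09).

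The red channel held a signal for MAP3K5 that the labels do not account for. On the first NCE array of each replicate, log2 red minus green of probe A_23_P134125 was -0.96, -1.04 and -1.34 for replicates 1, 2 and 3, whereas on the other 6 NCE arrays it lay between -0.11 and 0.21. Probe A_33_P3377130 gave -1.74, -1.55 and -1.14 on the same 3 arrays and -0.87 to -0.29 on the other 6. DUSP1 gave 1.66, 1.09 and 1.19 there and -0.45 to 0.47 on the other 6. On the CYGB+ arrays red minus green of A_23_P134125 lay between 0.15 and 1.90, the highest on the second array of replicate 1, where the CYGB probe read -2.76. Probe A_33_P3377130 ran the other way there, between -1.94 and 0.04 with a median of -0.72, and DUSP1 lay between -0.48 and 0.31. Which RNA the red channel carried is not known here, and these values were put in no group and not tested.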

How the results depend on the processing

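Over the 20 alternatives both MAP3K5 probes stayed lower and DUSP1 higher in CYGB+. Where calls were lost or gained below, the cause was not tested. The number of member probes called (3 as reported) was 0 within the second slide, where NCE has 1 array, 1 by the methods' t-test, 5 with array repeats as a random block, 5 without the dim array, 0 without its repeat and 1 to 3 when 1 replicate was left out. For the wider list (10 reported) it was 16 after normexp, 4 with no filter on dim probes, 2 with slide as a block, 31 with the random block, 0 within the second slide, 2 by the t-test, 20 without the dim array, 0 without its repeat and 0 to 8 with 1 replicate left out. Over all probes (1847 reported) it was 1196 with no filter, 655 with slide as a block, 4754 with the random block, 37 within the second slide, 657 by the t-test, 3689 without the dim array, 216 without its repeat and 391 to 1654 with 1 replicate left out. With the replicate block, which uses the pairing by number, 2597 probes, 14 list probes and 3 member probes were called, and no call of a member changed.

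MAP3K5 probe A_33_P3377130 gave -1.48 with slide as a block, -1.35 within the second slide and -1.24 by the t-test, not called in any of them, and -1.36 to -1.13 with 1 replicate left out. Without the repeat of the dim array that probe gave -1.04, MAP3K5 probe A_23_P134125 -1.31 and DUSP1 0.96, none of them called. MAP3K5 probe A_23_P134125 gave -1.39 within the second slide. DUSP1 gave 1.13 there and 0.94 by the t-test, not called in either, and 0.84 to 1.06 with 1 replicate left out. Signs turned for differences that were never called. They were 0.31 and 0.27 for MAP2K3 probe A_24_P296698 and 0.026 and 0.14 for MAPK14, with slide as a block and within the second slide. MAP2K4 probe A_32_P6344 gave -0.0093 within the second slide and -0.012 without the dim array. MAP3K6 probe A_33_P3404418 gave 0.023 without that array. MAP2K6 gave 0.021 after normexp, 0.076 before dye normalisation and 0.16 without the dim array. CYGB gave 0.11 under scaling to the 75th percentile and 0.047 in the deposited value table. With 1 replicate left out, the ranges were -0.27 to 0.21 for that MAP3K6 probe, -0.054 to 0.24 for that MAP2K4 probe, -0.35 to 0.10 for MAP2K6, -0.54 to 0.045 for MAPK9 probe A_33_P3400192 (0.023 without the repeat of the dim array) and -0.30 to 0.23 for CYGB. The value table holds no MAP2K6 probe and not this MAPK9 probe. Signal over background limits MAP2K6 and, in the list, MAPK10 and DUSP7.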
